A study of Mus musculus with 24 samples.

Results

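The receptors described here are 4 nuclear receptors for steroid hormones, the progesterone receptor Pgr, the estrogen receptor alpha Esr1, the glucocorticoid receptor Nr3c1 and the mineralocorticoid receptor Nr3c2. They were taken by symbol from the 29020 genes of a table of total RNA from mouse mesenteric arteries, and all 4 were found. They were chosen by the measured values of these libraries over time, the progesterone receptor for its lower values at the later time. Their differences between the times are therefore given as a description without a test, and only the genotype comparisons were tested.

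The arteries came from 24 male mice in 4 groups of 6, and each library is 1 mouse, named by its animal ID. The ieET-1 mice overexpress human endothelin-1, a vasoconstrictor peptide, in the endothelium once tamoxifen has switched on a Cre recombinase driven by the endothelium-specific Tie2 promoter. The ieCre controls carry the same inducible recombinase without the endothelin-1 overexpression. Both genotypes were 10 to 12 weeks old at the start, received 5 daily injections of tamoxifen under the skin (1 mg/kg/day), and were killed 3 months later (long term) or 16 days later (short term). Every group had tamoxifen, and an untreated group was not analysed here. The long-term mice were also older, so time since tamoxifen and age cannot be told apart.

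Steroid receptors are ligand-activated transcription factors. Bound to heat shock proteins in the resting state, they take up a steroid, enter or stay in the nucleus as dimers and act on target genes through coactivators and corepressors. Arteries are a target of several of them: estrogen receptor alpha is known for effects on endothelial nitric oxide and on smooth muscle growth, the mineralocorticoid receptor for smooth muscle and endothelial responses to aldosterone, and the glucocorticoid receptor for damping inflammation. The progesterone receptor gene is itself a textbook target of estrogen receptor alpha, and tamoxifen is a ligand of that receptor, an agonist in some tissues and an antagonist in others.

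Recovered library totals ran from 9635250 to 16181605 reads with a median of 13017255. In 4 libraries over 10% of the reads fell on the single gene Gm42418, namely mice 8135 and 8136 (ieET-1 long term), 9491 (ieCre long term) and 9955 (ieCre short term). Summed markers of smooth muscle (8973 to 21082), of endothelium (1778 to 3668) and of adventitial fibroblasts (7540 to 18904) were present in all 24 libraries. Mouse Edn1, to which reads of the human transgene contribute only where they align there, averaged 43.9 ± 5.16 in ieET-1 and 35.9 ± 6.41 in ieCre short-term arteries (SD, n = 6 each; limma, adjusted p = 0.486). It averaged 31.6 ± 4.48 in ieET-1 and 32 ± 4.73 in ieCre long-term arteries.

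The promoters of Pgr, Esr1 and Nr3c2 are shown for orientation, since Pgr and Esr1 had parallel time courses and Nr3c2 did not follow them. Nr3c1, on the minus strand, did not follow them either, and its promoter is not shown. Each run is the 250 bases before a RefSeq transcript start on the GRCm38.p6 build, plus strand, 5′ to 3′: chr9:8899583-8899832 for Pgr, chr10:4611739-4611988 and chr10:4709908-4710157 for the start sites of Esr1, and chr8:76902080-76902329 for Nr3c2. Capitals mark matches to 4 short motifs searched on both strands. The estrogen receptor half-site was searched as GGTCA, which reads TGACC on the other strand. The half-site of the glucocorticoid, mineralocorticoid and progesterone receptors was searched as AGAACA, which reads TGTTCT on the other strand. The so-called CCAAT box reads ATTGG on the other strand. The GC box was searched as GGGCGG, which reads CCGCCC on the other strand. No match overlapped another.
Pgr: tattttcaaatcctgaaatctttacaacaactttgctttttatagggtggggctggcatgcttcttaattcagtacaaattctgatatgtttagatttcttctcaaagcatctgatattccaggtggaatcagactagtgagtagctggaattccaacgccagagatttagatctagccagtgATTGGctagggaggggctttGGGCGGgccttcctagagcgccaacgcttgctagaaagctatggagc
Esr1 start 1: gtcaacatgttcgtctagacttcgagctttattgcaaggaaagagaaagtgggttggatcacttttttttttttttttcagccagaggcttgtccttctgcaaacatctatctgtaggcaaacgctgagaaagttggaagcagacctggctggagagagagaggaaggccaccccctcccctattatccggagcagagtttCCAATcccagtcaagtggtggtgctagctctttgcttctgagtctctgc
Esr1 start 2: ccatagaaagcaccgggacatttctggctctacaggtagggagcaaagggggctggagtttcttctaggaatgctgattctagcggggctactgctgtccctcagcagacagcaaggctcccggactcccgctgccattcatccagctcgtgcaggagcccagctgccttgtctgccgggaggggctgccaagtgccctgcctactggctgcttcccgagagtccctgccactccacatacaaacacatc
Nr3c2: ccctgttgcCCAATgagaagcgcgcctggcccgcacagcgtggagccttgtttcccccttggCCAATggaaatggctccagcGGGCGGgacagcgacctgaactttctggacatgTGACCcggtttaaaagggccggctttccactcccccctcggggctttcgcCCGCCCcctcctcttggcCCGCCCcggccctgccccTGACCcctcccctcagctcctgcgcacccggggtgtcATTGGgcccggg

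Of 32851 RefSeq promoters of the same length, 35.2% hold the estrogen receptor half-site, 16.1% the other receptor half-site, 33.8% the CCAAT box and 32.7% the GC box, so each single match is common. The Pgr window held ATTGG at -67 and GGGCGG at -47, counted from the transcript start. The upstream Esr1 window held CCAAT at -49, and the downstream one held no match to any of the 4 motifs. The Nr3c2 window held 8 matches, among them TGACC at -135 and -49, and was the richest in G and C at 68.4%, against 43.6% for Pgr and 47.6% and 59.6% for the Esr1 starts. AGAACA and TGTTCT were not among the letters of these windows, which says nothing about binding of a receptor there or elsewhere.

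Values below are the deposited normalized values, whole reads divided by a library's effective size, on a scale close to CPM. Differences are on the log2(value + 1) scale, ieET-1 minus ieCre or long minus short term, from a limma fit over all 24 libraries. That scale understates the change of a gene with low values.

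Pgr (ENSMUSG00000031870, chromosome 9, 8899833 to 8968611, plus strand, GRCm38) was at trace level in the long-term arteries of both genotypes and several-fold higher in the short-term ones. In long-term ieET-1 arteries its values had a minimum of 0.423, a median of 0.583 and a maximum of 2.46 (4 to 16 reads), and in short-term ieET-1 arteries a minimum of 3.35, a median of 6.87 and a maximum of 11.3 (45 to 141 reads). In long-term ieCre arteries the values had a minimum of 0.235, a median of 0.802 and a maximum of 1.24 (2 to 21 reads), and in short-term ieCre arteries a minimum of 4.57, a median of 5.6 and a maximum of 7.88 (40 to 127 reads). All 6 long-term mice of each genotype lay below all 6 short-term mice of that genotype, and over both genotypes the highest long-term value stayed under the lowest short-term one. A value of at least 1 was reached by 3 of 12 long-term libraries and by 12 of 12 short-term libraries.

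The Pgr means were 0.904 ± 0.786 at the long and 7.08 ± 2.99 at the short term in ieET-1 arteries (SD, n = 6 each), a 7.84-fold lower mean at the long term. In ieCre arteries they were 0.828 ± 0.381 at the long and 5.81 ± 1.17 at the short term, 7.02-fold lower. The fitted log2 differences were -2.08 (SE 0.23) in ieET-1 and -1.91 (SE 0.23) in ieCre arteries. With a pseudocount of 0.1 in place of 1 they were -2.99 and -2.78. For background, 1.33% of all 14544 genes tested were lower in every long-term than in every short-term library of the ieET-1 mice, 1.05% in the ieCre mice, and 0.199% over all 12 against 12 libraries. Since the time course chose the gene, nothing is read from its place among these.

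At the long term the depth limits what can be said of Pgr. A value of 3 reads, the least taken as detection, corresponded to 0.177 to 0.461 depending on the library, and 1 long-term library (mouse 9491, 2 reads) was under it. The highest long-term value, 2.46, came from mouse 8135, the library with the fewest reads and with 21.31% of them on Gm42418. Without the 4 libraries rich in that gene the log2 difference was -2.23 in ieET-1 and -1.79 in ieCre arteries.

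**Figure D1:**
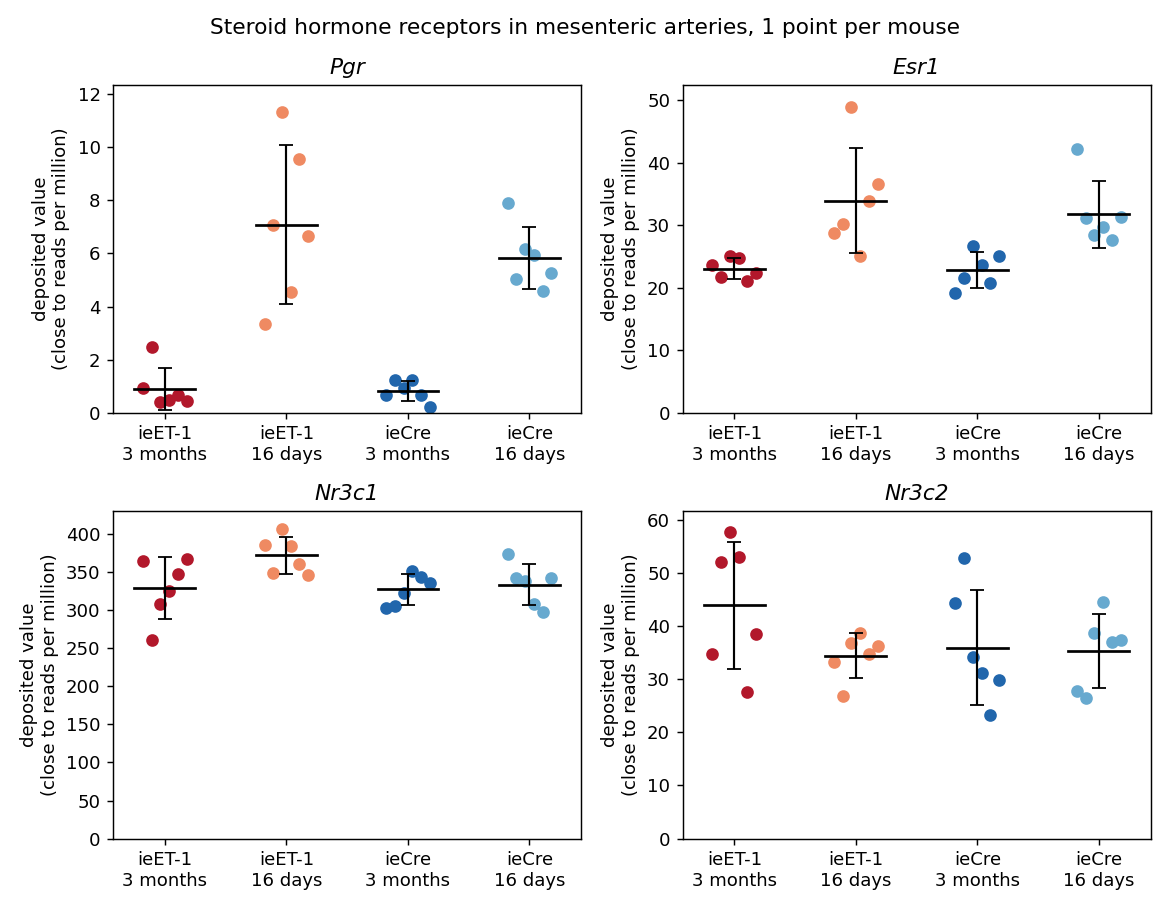
Normalized value (y axis, close to CPM, starting at 0) of Pgr, Esr1, Nr3c1 and Nr3c2 in each of the 24 mice, by genotype and time, with group mean and SD (n = 6). The long-term points of Pgr and Esr1 lie below the short-term points within each genotype, while those of Nr3c1 and Nr3c2 overlap.

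Esr1 (ENSMUSG00000019768, chromosome 10, 4611593 to 5005614, plus strand) was also lower at the long term in both genotypes, by a smaller factor and at 141 to 681 reads per library. In long-term ieET-1 arteries its values had a minimum of 21, a median of 23 and a maximum of 25, and in short-term ieET-1 arteries a minimum of 25.1, a median of 32 and a maximum of 48.9. In long-term ieCre arteries they had a minimum of 19.2, a median of 22.6 and a maximum of 26.7, and in short-term ieCre arteries a minimum of 27.7, a median of 30.4 and a maximum of 42.2. Within each genotype the groups did not overlap, although in ieET-1 mice the margin was 25 against 25.1, and across genotypes the highest long-term ieCre value (26.7) exceeded the lowest short-term ieET-1 value (25.1). Of all genes tested, 1.33% were lower without overlap in the ieET-1 and 1.05% in the ieCre mice. Esr1 too was chosen with its time pattern known, so nothing is read from its place among these.

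The Esr1 means were 23 ± 1.64 at the long and 33.9 ± 8.37 at the short term in ieET-1 arteries, 1.47-fold lower at the long term, with a log2 difference of -0.51 (SE 0.12). In ieCre arteries they were 22.8 ± 2.84 and 31.7 ± 5.34 in the same order, 1.39-fold lower, with a log2 difference of -0.45 (SE 0.12). The spread among short-term mice was wider than among long-term mice in both genotypes. Mouse 258 (ieET-1) held the highest short-term value of both Esr1 (48.9) and Pgr (11.3), and mouse 8 (ieCre) held the highest of its group for both (42.2 and 7.88).

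Markers of adventitial fibroblasts moved the same way as Pgr and Esr1. Their sum over 10 genes was 7540 to 13196 at the long and 13429 to 17477 at the short term in ieET-1 arteries, and 7620 to 15114 and 14912 to 18904 in the same order in ieCre arteries. In each genotype 3 of the 10 were called lower at the long term (limma, adjusted p under 0.05), with a median log2 difference of -0.56 in ieET-1 and -0.39 in ieCre arteries, and none of the 10 was at 0. Over all genes, 3.39% were called lower and 5.27% higher in ieET-1, and 1.37% lower and 1.93% higher in ieCre arteries. The smooth muscle sum was 13116 to 16603 at the long and 8973 to 14888 at the short term in ieET-1, and 9184 to 21082 and 12501 to 15841 in the same order in ieCre arteries. Of 7 adipocyte markers, 3 were called higher in each genotype and 1 lower in ieET-1 arteries, with overlapping sums of 1133 to 2706 at the long and 1333 to 2326 at the short term in ieET-1, and 1287 to 2356 and 1221 to 1741 in the same order in ieCre arteries. The 8 pancreatic acinar markers had median sums of 33640 (1367 to 59499) at the long and 2918 (948 to 18425) at the short term in ieET-1, and 10944 (410 to 29260) at the long and 7911 (96.4 to 27335) at the short term in ieCre arteries. Their median log2 differences were 2.45 in ieET-1 and 0.98 in ieCre arteries, and none of the 8 was called in either. In bulk arteries fewer cells of a type and less RNA per cell cannot be told apart, and the part of fibroblast or pancreatic content in the receptor values was not tested.

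Nr3c1 (ENSMUSG00000024431, chromosome 18, 39410545 to 39519421, minus strand) was the most abundant of the receptors, with 1696 to 6035 reads per library. In long-term ieET-1 arteries its values had a minimum of 261, a median of 336 and a maximum of 368, and in short-term ieET-1 arteries a minimum of 346, a median of 373 and a maximum of 407. In long-term ieCre arteries they had a minimum of 303, a median of 329 and a maximum of 352, and in short-term ieCre arteries a minimum of 298, a median of 340 and a maximum of 374. All 4 groups overlapped, and 3 of the 6 long-term ieET-1 mice lay below every short-term ieET-1 mouse.

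The Nr3c1 means were 329 ± 40.8 at the long and 372 ± 24.2 at the short term in ieET-1 arteries, a log2 difference of -0.18 (SE 0.08). In ieCre arteries they were 327 ± 20 and 334 ± 27.3 in the same order, a log2 difference of -0.03 (SE 0.08). The lowest value of the series, 261, was that of mouse 8135, and without the 4 libraries rich in Gm42418 the ieET-1 difference was -0.08.

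Nr3c2 (ENSMUSG00000031618, chromosome 8, 76899442 to 77245012, plus strand) was spread more widely at the long than at the short term in both genotypes. In long-term ieET-1 arteries its values had a minimum of 27.5, a median of 45.3 and a maximum of 57.6, and in short-term ieET-1 arteries a minimum of 26.8, a median of 35.5 and a maximum of 38.7. In long-term ieCre arteries they had a minimum of 23.2, a median of 32.7 and a maximum of 52.8, and in short-term ieCre arteries a minimum of 26.5, a median of 37.2 and a maximum of 44.6. The groups overlapped throughout, with 3 long-term ieET-1 mice above every short-term ieET-1 mouse. The gene shares its position with Gm23260 and, on the other strand, Gm10649, whose values stayed at or below 0.36 and 0.31. How shared reads were counted is not known, and the part of these genes in the Nr3c2 values was not tested.

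The Nr3c2 means were 43.9 ± 12 at the long and 34.4 ± 4.19 at the short term in ieET-1 arteries, a log2 difference of 0.30 (SE 0.18). It was 0.17 with the animal ID range as a term and 0.12 without the 4 libraries rich in Gm42418. In ieCre arteries they were 35.9 ± 10.8 and 35.3 ± 6.92 in the same order, a log2 difference of -0.0027 (SE 0.18). The long-term values were higher in 1 range of animal IDs than in the other, in both genotypes. Mice numbered 8088 to 8152 averaged 49.3 ± 10.1 in ieET-1 (n = 4) and 48.6 ± 5.94 in ieCre arteries (n = 2), whereas mice numbered 9485 to 9491 averaged 33 ± 7.76 in ieET-1 (n = 2) and 29.6 ± 4.61 in ieCre arteries (n = 4). Over both genotypes the values ran from 34.7 to 57.6 in mice 8088 to 8152 and from 23.2 to 38.5 in mice 9485 to 9491, with 1 mouse of each range (8134 and 9490) in the shared span. The ieET-1 group held 4 mice with the higher values' ID range and the ieCre group 2. The ID ranges were set within each time, and the labels do not say what they stand for.

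Nr3c1 ran the other way over the same long-term ranges, at 311 ± 33.8 in mice 8088 to 8152 and 345 ± 15.2 in mice 9485 to 9491 (SD, n = 6 each, both genotypes). For Pgr the ranges averaged 1.07 in ieET-1 and 0.953 in ieCre mice numbered 8088 to 8152, and 0.564 in ieET-1 and 0.765 in ieCre mice numbered 9485 to 9491. Every one of these was below the short-term means, which were 7.25 in ieET-1 and 6.46 in ieCre mice numbered 8 to 258, and 6.91 in ieET-1 and 5.49 in ieCre mice numbered 8754 to 9958. The lower Pgr values at the long term were seen in both ID ranges of that time. Each range holds mice of 1 time only, so the ranges cannot separate time from other differences between the sets of mice.

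**Figure D2:**
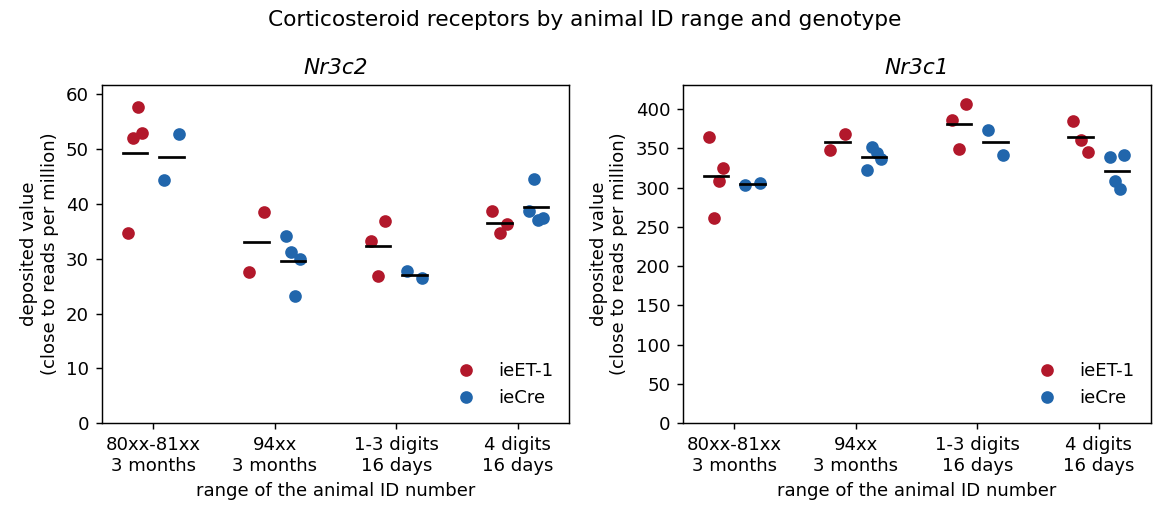
Normalized values (y axes, close to CPM, starting at 0) of Nr3c2 and Nr3c1 by range of animal ID and genotype, 1 point per mouse, with means as black lines. Nr3c2 averaged 49.1 in the long-term mice of the range 8088 to 8152 and 30.7 in those of the range 9485 to 9491, with the genotypes close together in each range.

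The genotype comparisons ask whether endothelin-1 overexpression in the endothelium changed the receptors at either time. None of the 12 tests, the ieET-1 minus ieCre difference at each time and the change of that difference with time for each receptor, passed an adjusted p of 0.05 in limma, and none had an unadjusted p under 0.05. Neither edgeR nor DESeq2 called any of them. Over all 14544 genes, limma called 0.0825% in the short-term and 0.00688% in the long-term comparison, and 0% for the change with time, where 731 genes (5.03%) had an unadjusted p under 0.05, edgeR called 0 and DESeq2 called 6. With so few genes called anywhere, a receptor that misses the threshold is not shown to be alike in the genotypes, and the intervals give the sizes that remain possible.

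At the short term Pgr averaged 7.08 ± 2.99 in ieET-1 and 5.81 ± 1.17 in ieCre arteries, 0.18 higher on the log2 scale with a 95% interval of -0.30 to 0.66 (limma, adjusted p = 0.777). With the adrenal cortex marker score as a term it was -0.24. The markers of that score differed between the genotypes at this time, with mean sums of 28.9 in ieET-1 and 353 in ieCre arteries. That fit therefore separates the score and the genotype poorly. Leaving out each mouse in turn gave a Pgr difference of 0.04 (without mouse 258) to 0.34. The smallest adjusted p of the 4 at this time was that of Nr3c1, which averaged 372 ± 24.2 in ieET-1 and 334 ± 27.3 in ieCre arteries, 0.16 higher with an interval of -0.02 to 0.33 (limma, adjusted p = 0.53). Esr1 differed by 0.08 (-0.18 to 0.33; limma, adjusted p = 0.823) and Nr3c2 by -0.02 (-0.40 to 0.35; limma, adjusted p = 0.972). For Nr3c1, 3 of 6 ieET-1 mice lay above every ieCre mouse, and for the others the groups were interleaved.

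At the long term Nr3c2 had the largest difference, with 43.9 ± 12 in ieET-1 and 35.9 ± 10.8 in ieCre arteries, 0.28 higher with an interval of -0.09 to 0.66 (limma, adjusted p = 0.999). With the animal ID range as a term in the model it was 0.07, and without the 4 libraries rich in Gm42418 it was 0.06. Pgr differed by 0.01 (-0.47 to 0.49; limma, adjusted p = 0.999) and Esr1 by 0.02 (-0.24 to 0.27; limma, adjusted p = 0.999). Nr3c1 differed by -0.00027 (-0.17 to 0.17), the narrowest of the intervals.

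The change of the genotype difference with time was -0.17 for Pgr (95% interval -0.85 to 0.51; limma, adjusted p = 0.872) and -0.06 for Esr1 (-0.42 to 0.31; limma, adjusted p = 0.921). It was -0.16 for Nr3c1 (-0.40 to 0.09; limma, adjusted p = 0.752) and 0.31 for Nr3c2 (-0.22 to 0.84; limma, adjusted p = 0.754). For Nr3c2 it was 0.04 with the animal ID range as a term and 0.02 without the 4 libraries rich in Gm42418. For Pgr it was 0.21 with the adrenal cortex marker score as a term, a score that itself differed between the genotypes at the short term. Both bounds for Pgr were smaller in size than its time differences of -2.08 in ieET-1 and -1.91 in ieCre arteries.

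**Figure D3:**
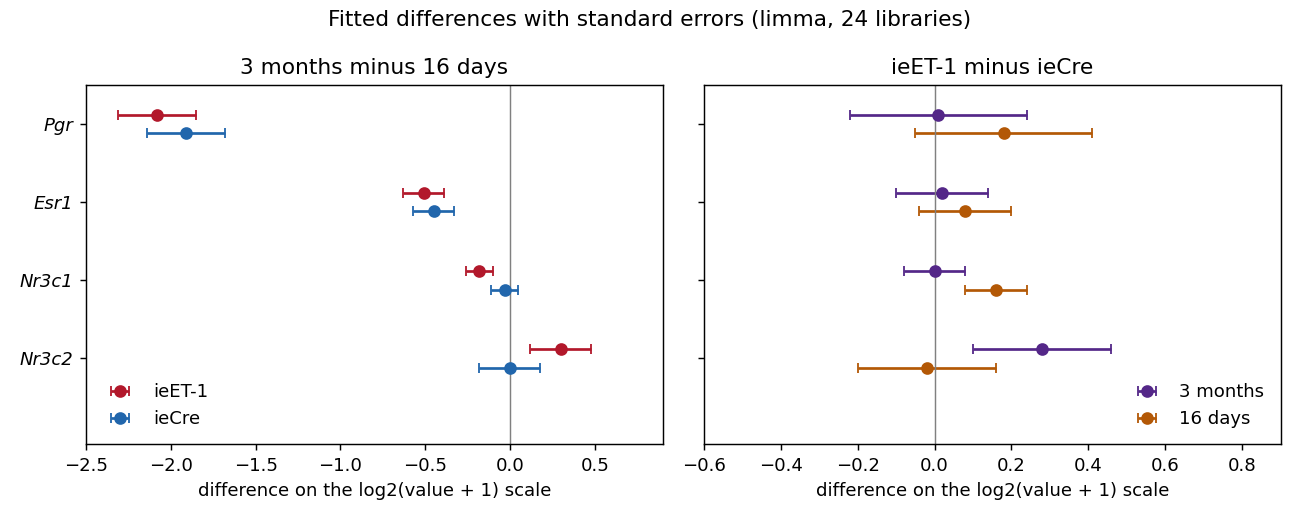
Fitted differences of the 4 receptors on the log2(value + 1) scale (x axes) with standard errors, for 3 months minus 16 days in each genotype (left) and ieET-1 minus ieCre at each time (right). The Pgr and Esr1 points lie below 0 in both genotypes on the left, and none of the differences on the right passed the test.

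Divided by exon length, the receptors showed a wide order of abundance. Before division, Nr3c2 and Esr1 overlapped at the short term, with means of 34.4 and 33.9 in ieET-1 and 35.3 and 31.7 in ieCre arteries. The lengths count every annotated exon of a gene, 13661 bases for Esr1 and 6474 for Nr3c2. Which isoforms the arteries expressed was not determined, so the order of Nr3c2 and Esr1 rests on these lengths. Per kilobase of exons, Nr3c1 stood at 42.8 ± 5.32 (long term) and 48.4 ± 3.15 (short term) in ieET-1, and at 42.6 ± 2.6 (long term) and 43.5 ± 3.55 (short term) in ieCre arteries. Nr3c2 stood at 6.78 ± 1.85 (long term) and 5.32 ± 0.647 (short term) in ieET-1, and at 5.55 ± 1.66 (long term) and 5.46 ± 1.07 (short term) in ieCre arteries. On this scale the glucocorticoid receptor was the most abundant and the mineralocorticoid receptor came next among the 4. Esr1 stood at 1.69 ± 0.12 (long term) and 2.48 ± 0.612 (short term) in ieET-1, and at 1.67 ± 0.208 (long term) and 2.32 ± 0.391 (short term) in ieCre arteries. Pgr stood at 0.106 ± 0.0919 (long term) and 0.829 ± 0.35 (short term) in ieET-1, and at 0.0969 ± 0.0446 (long term) and 0.68 ± 0.137 (short term) in ieCre arteries.

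Per kilobase, the order Nr3c1, Nr3c2, Esr1, Pgr held in every group, and no 2 of these receptors overlapped within a group. Estrogen receptor beta, Esr2, had at most 1 read in any library and was not tested.

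**Figure D4:**
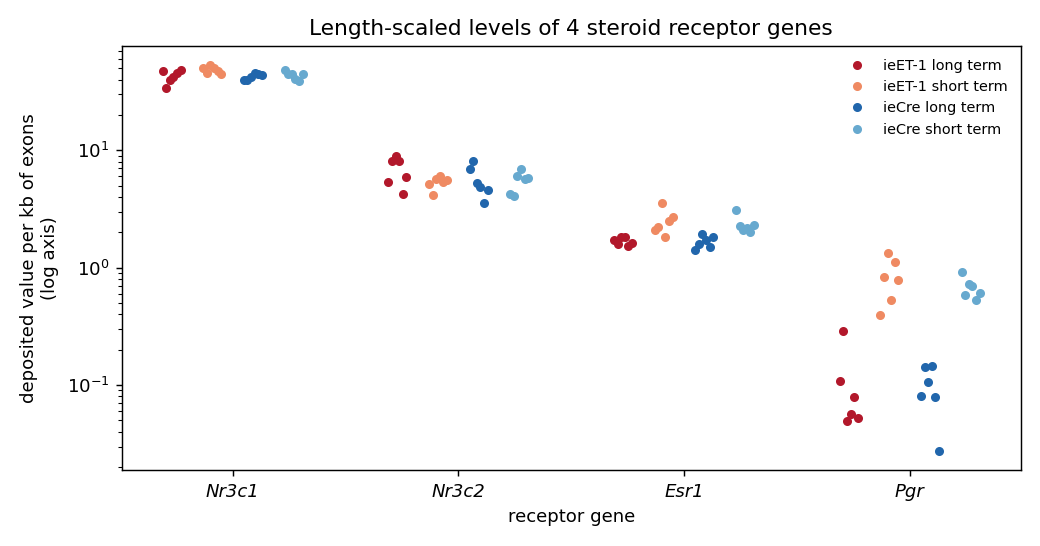
Normalized value per kilobase of exons (y axis, log scale) of Nr3c1, Nr3c2, Esr1 and Pgr, 1 point per mouse, coloured by group. Nr3c1 stands highest and Pgr lowest in every group, and the long-term and short-term points of Pgr lie apart.

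Across the 24 libraries the receptors fell into pairs of unlike behaviour. Values of log2(value + 1) of Pgr and Esr1 went together (Pearson r = 0.82, Spearman coefficient 0.81), and r was 0.43 once the group means were removed, so part of the likeness lay between mice of the same group. Nr3c1 and Nr3c2 went opposite ways (r = -0.53, Spearman coefficient -0.48), also within groups (r = -0.57). Differences between the animal ID ranges stay in place when group means are removed, and their part in this r was not tested. The other pairs lay between -0.21 and 0.49. The libraries share depth and scaling, and these values are a description over 24 mice in 4 groups.

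The genes most like Pgr over the libraries were Ampd3, an AMP deaminase (r = 0.91), Adamts19, a secreted metalloprotease (0.88), Klk1b24, a kallikrein (0.88), Wnt5a, a secreted Wnt ligand (0.87), and Igsf10 (0.87). Wnt5a averaged 67.9 at the long and 128 at the short term in ieET-1 arteries, and 72.7 at the long and 144 at the short term in ieCre arteries. Adamts19 and Klk1b24 had low values, with group means of 0.58 to 2.36 and 0.401 to 2.07, so their r rests on few reads. With the group means removed, r fell to 0.17 for Wnt5a and to 0.18 for Igsf10 but was 0.58 for Adamts19, so Wnt5a and Igsf10 were like Pgr mainly in their group means. For Esr1 the nearest were Snai2, a zinc finger repressor of epithelial genes (r = 0.85), Cmc4 (0.83), Pgr itself (0.82), Gxylt2 (0.81) and the tetraspanin Tspan2 (0.80). Snai2 and Tspan2 kept r = 0.65 and 0.67 within groups.

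For Nr3c1 the nearest were Lrrcc1 (r = 0.91), Zfp160 (0.88), Pik3ca, the catalytic subunit alpha of phosphoinositide 3-kinase (0.88), N4bp2l2 (0.88) and Zfp942 (0.87). For Nr3c2 they were Vwa8 (r = 0.92), Synrg (0.90), Nipal3 (0.90), Arhgef18, a guanine nucleotide exchange factor (0.90), and Zbtb4 (0.89). These likenesses remained within groups, with r of 0.82 to 0.88 for the Nr3c1 list and 0.90 to 0.95 for the Nr3c2 list. Both receptors differed between the animal ID ranges at the long term. Removing the group means leaves such differences in place, and their part in r was not tested. The genes were picked by r over all 24 libraries. Group means of Nr3c1 (327 to 372) and Nr3c2 (34.4 to 43.9) differed little, so their picks rest largely on spread within groups. Those of Pgr rest largely on its time difference, so the contrast with Pgr follows in part from how the genes were picked.

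The surroundings of the receptors were read from 9 lists of related genes, chosen with earlier results of these data known. In the short-term and long-term genotype comparisons and in the change with time, no member of any of the 9 lists was called (limma, adjusted p under 0.05). An unadjusted p under 0.05 was found for 13 of their 145 tested genes at the short term (8.97%, against 9.91% of all genes), for 6 at the long term (4.14%, against 2.99%) and for 6 in the change with time (4.14%, against 5.03%). At the short term edgeR and DESeq2 each called 1 member, in the list of other nuclear receptors. The smallest adjusted p at the short term was 0.0675, shared by the 5-alpha reductase Srd5a2 (0.704 ± 1.08 in ieET-1 and 6.53 ± 4.3 in ieCre arteries) and the steroidogenic factor Nr5a1 (0.0951 ± 0.154 and 2.54 ± 2.31 in the same order). Summed markers of adrenal cortex, Nr5a1 among them, were 3.05 to 79.3 in ieET-1 and 34.2 to 617 in ieCre short-term arteries. Of these 9 markers, 6 were called lower in ieET-1, against 0.0688% of all genes tested. Their part in either value was not tested. In the glucocorticoid response list 19 of 22 genes had higher values in ieET-1 at the short term, with a median log2 difference of 0.13 against -0.01 over all genes, and its smallest p belonged to Tsc22d3 (188 ± 94.4 in ieET-1 and 122 ± 26.4 in ieCre arteries; limma, adjusted p = 0.496).

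Between the times, limma called 5.27% of all genes higher and 3.39% lower at the long term in ieET-1, and 1.93% higher and 1.37% lower in ieCre arteries. The median of all genes was 0.01 in both. Both genotypes' long-term groups were compared with their own short-term groups, so the 2 time comparisons share no mice.

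Among the other nuclear receptors, 6 of 32 tested members were called higher and 2 lower at the long term in ieET-1 arteries, and 3 were called higher and 2 lower in ieCre arteries. The retinoic acid receptor Rarb rose in both, to 12.9 ± 2.28 in long-term against 7.91 ± 1.35 in short-term ieET-1 arteries (0.64; limma, adjusted p = 0.00188) and to 11.9 ± 1.82 against 8.02 ± 0.983 in ieCre arteries (0.52; adjusted p = 0.0167). The orphan receptor Nr2f6 rose in both as well, by 0.57 in ieET-1 and 0.45 in ieCre arteries (limma, adjusted p = 0.0021 and 0.0226). The immediate-early receptor Nr4a3 fell in ieET-1 arteries (log2 difference -0.96; limma, adjusted p = 0.0199), and the oxysterol receptor gene Nr1h2 rose there by 0.54 (adjusted p = 0.00603).

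Further calls of that list were higher values of Ppara, Rxrb and Esrra in ieET-1 and of Nr1h3 in ieCre arteries, and lower values of Nr5a1 in ieCre arteries. Nr1h3, Ppara, Rxrb and Esrra were named after their values were seen. Without the 4 libraries rich in Gm42418 the list held 3 higher and 0 lower calls in ieET-1 and 2 higher and 2 lower in ieCre arteries. With the adrenal cortex marker score as a term there were 3 higher and 0 lower calls in ieET-1 and 1 higher and 0 lower in ieCre arteries. Nr5a1 is itself 1 of the markers in that score, so its loss there is no independent check.

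Among the estrogen response genes, 1 of 15 was called lower in each genotype, a different gene in each. In ieET-1 arteries it was Igf1, a growth factor, at 106 ± 38.1 in long-term and 194 ± 32.4 in short-term arteries (log2 difference -0.92; limma, adjusted p = 0.0154). In ieCre arteries it was Greb1, a cofactor of estrogen receptor alpha and one of its standard target genes, at 1.6 ± 0.624 in long-term and 4.22 ± 2.18 in short-term arteries (-0.96; limma, adjusted p = 0.0072). Greb1 had 1.51 ± 0.377 in long-term and 2.69 ± 0.6 in short-term ieET-1 arteries (-0.55; limma, adjusted p = 0.0799). The Igf1 call was lost without the 4 libraries rich in Gm42418 (limma, adjusted p = 0.127), and the Greb1 call with the adrenal score as a term (0.0927). The medians of the list were 0.10 in ieET-1 and -0.10 in ieCre arteries.

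Among the progesterone response genes, 1 of 14 was called lower in each genotype, the epidermal growth factor receptor inhibitor Errfi1 in ieET-1 and the activin-binding protein Fst in ieCre arteries. Errfi1 is also in the glucocorticoid response list, and its call is counted in both. Fst stood at 7.05 ± 0.679 in long-term and 10.8 ± 3.1 in short-term ieCre arteries (log2 difference -0.52; limma, adjusted p = 0.0408). Neither call remained without the 4 libraries rich in Gm42418 (limma, adjusted p = 0.0917 for Errfi1 and 0.0752 for Fst). The medians were 0.06 in ieET-1 and 0.10 in ieCre arteries, against 0.01 over all genes.

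Of 22 glucocorticoid response genes, 4 were called lower and none higher at the long term in ieET-1 arteries, and none was called in ieCre arteries. The 4 were Fam107a, an actin-binding protein, at 47.8 ± 11.3 in long-term and 76.6 ± 17.2 in short-term arteries (log2 difference -0.67; limma, adjusted p = 0.0112), Errfi1 (-0.95; 0.02), the pyruvate dehydrogenase kinase Pdk4 (-0.82; 0.0379) and the clock gene Per1 (-0.89; 0.0477). In ieCre arteries the same 4 had log2 differences of -0.36, -0.54, -0.21 and -0.57 and did not pass. The difference between the genotypes' time courses was tested across all genes and called none of them. The list held 3 lower calls without the 4 libraries rich in Gm42418 and 1 with the adrenal score as a term.

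Of 10 mineralocorticoid response genes tested, 2 were called lower in ieET-1 arteries, Per1 and Edn1, and 1 in ieCre arteries. Per1 is the same call as in the glucocorticoid response list. Reads of the human transgene may contribute to Edn1 where they align there, and their part in its time difference was not tested. Edn1, which encodes endothelin-1, stood at 31.6 ± 4.48 in long-term and 43.9 ± 5.16 in short-term ieET-1 arteries (log2 difference -0.47; limma, adjusted p = 0.0196). Edn1 did not pass without the libraries rich in Gm42418 (limma, adjusted p = 0.114) or with the adrenal cortex marker score as a term (0.0604). Without those libraries the list held 1 call in ieET-1 arteries, Per1, and 0 in ieCre arteries.

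Genes that make or remove active steroids in the tissue were higher at the long term where they were called over all 24 libraries. In ieET-1 arteries the estrogen sulfotransferase Sult1e1 rose to 5.35 ± 3.38 in long-term against 1.36 ± 0.619 in short-term arteries (log2 difference 1.32; limma, adjusted p = 0.00884), and so did H6pd, which supplies the cofactor for regenerating active glucocorticoids (0.49; 0.0257). In ieCre arteries Hsd11b1, the enzyme of that regeneration, rose to 166 ± 38.3 in long-term against 107 ± 23.6 in short-term arteries (0.63; limma, adjusted p = 0.0338). Of 13 tested, 3 were called higher in ieET-1 and 2 in ieCre arteries, and none lower. Without the libraries rich in Gm42418, 2 were called higher in ieET-1 arteries, and in ieCre arteries none was called higher and 1 lower, the 5-alpha reductase Srd5a2 (log2 difference -1.99; limma, adjusted p = 0.0213), named after its value was seen.

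Of the membrane receptors for steroids, the estrogen receptor Gper1 was called, at 7.16 ± 1.12 in long-term and 3.95 ± 1.27 in short-term ieET-1 arteries (log2 difference 0.75; limma, adjusted p = 0.0148; 0.0751 without the libraries rich in Gm42418). The other 6 tested did not pass there, and none of the 7 passed in ieCre arteries. Among 16 receptor chaperones, the kinase cochaperone Cdc37 rose in both genotypes, to 88.8 ± 11.4 in long-term against 64.7 ± 4.86 in short-term ieET-1 arteries (0.44; limma, adjusted p = 0.00215) and to 103 ± 8.17 against 78.2 ± 6.69 in ieCre arteries (0.40; adjusted p = 0.00978). In ieET-1 arteries Fkbp4, a cochaperone of the progesterone and glucocorticoid receptors, rose by 0.51 (limma, adjusted p = 0.0158), and Ppid fell by 0.30 (adjusted p = 0.0307). Without the libraries rich in Gm42418 neither passed (limma, adjusted p = 0.0998 for Fkbp4 and 0.151 for Ppid). Of 24 coregulators only Ncoa7, a coactivator of estrogen receptor alpha, was called, and it fell in both genotypes, to 48.8 ± 4.31 in long-term against 59.2 ± 2.12 in short-term ieET-1 arteries (-0.28; limma, adjusted p = 0.00689) and to 49.3 ± 2.37 against 58.1 ± 1.9 in ieCre arteries (-0.23; adjusted p = 0.0354). Neither Ncoa7 call remained without the libraries rich in Gm42418 (limma, adjusted p = 0.0681 in ieET-1 and 0.0639 in ieCre arteries).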

How the data were processed

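Total RNA of mesenteric arteries, dissected from fat and veins, was sequenced from stranded, ribosomal RNA-depleted libraries, per the labels' protocols. The authors deposited 1 table of signal values, each a whole number of reads divided by a library's effective size. The submitters' processing notes name STAR 2.3.1 and edgeR 3.6.8, beside bcl2fastq 1.8.4, FastQC and R 3.2.3. Not given in the sources used here are the genome build, annotation, read counter and use of strand. Of 29020 gene IDs, 28424 (97.9%) matched a symbol in GENCODE release 21 of mouse (GRCm38), which also gave locations and exon lengths.

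In each library the smallest positive value stands for 1 read. Values were divided by it, and 100% of 482060 positive values came out whole within 0.001. A row named ID, at most 0.0993% of a library's reads, was left out. A gene was tested if 6 or more libraries had a value of 1 or more. These 14544 genes were compared with limma 3.58.1 in R 4.3.3, with a variance trend, on log2(value + 1), in 1 model of 4 groups with 20 residual degrees of freedom. Tests were two-sided with Benjamini-Hochberg adjustment in each comparison at 0.05. The labels name single mice, so p-values measure the spread between mice. The fit was tested on simulated data. Floors cover counting error only.

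The members and lists were chosen with earlier results of these data known. Named genes were the 4 receptors, up to 4 members of each list with the smallest p, and the 5 named genes of highest Pearson correlation with each receptor. Some genes counted in the lists are not reported here. Alternatives included edgeR 4.0.16 and DESeq2 1.42.0 on the recovered reads, other filters and pseudocounts, library weights, animal ID range or an adrenal cortex score (mean log2 value of its markers) as a term, leaving out 4 libraries, and leaving out each mouse.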

Additional observations from a re-analysis of the deposited data

Results flagged for a closer look

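Of 16 groups of 6 libraries looked at, 4 receptors in 4 groups, 2 held a highest library set apart from the others by more than Dixon's critical value at 95% confidence, and chance gives about 1 in 20 such groups. Pgr in long-term ieET-1 arteries had 2.46 in mouse 8135, with a gap of 0.75 of the range to the next mouse. That library had 16 Pgr reads, the fewest reads in all and 21.31% of them on Gm42418. Without it the Pgr time difference of the ieET-1 mice was -2.27. Esr1 in short-term ieCre arteries had 42.2 in mouse 8, with a gap of 0.755 of the range. Without that mouse the Esr1 time difference of the ieCre mice was -0.37, against -0.45 with it.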

How the results depend on the processing

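No genotype test of a receptor passed under any alternative run, and the lowest adjusted p was 0.234 (Nr3c1, short term). The Pgr and Esr1 time differences stayed below 0 in every alternative. On scales that shrink low values less, the Pgr difference was larger: -2.99 in ieET-1 and -2.78 in ieCre arteries with a pseudocount of 0.1, -3.09 and -2.75 in edgeR with the deposited library sizes, -3.10 and -2.76 with TMM, and -3.11 and -2.78 in DESeq2. Some genotype differences changed sign, most but not all of them near 0. None of them was called, and the cause was not tested. For Pgr at the long term (0.01) the values were -0.01 with a pseudocount of 0.1, -0.05 in either edgeR fit, -0.04 in DESeq2, -0.11 with library weights, -0.07 with ID range, -0.02 with the adrenal score and -0.25 without the 4 libraries rich in Gm42418. For Nr3c1 at the long term they were 0.01 in both edgeR fits and in DESeq2, 0.02 with weights, 0.06 with ID range, 6.2e-05 with the adrenal score and 0.11 without those libraries. Nr3c2 at the short term became 0.03, 0.01 and 0.05 with ID range, with the adrenal score and without those libraries. With the adrenal score, Pgr became -0.24 at the short term and 0.21 for the change with time, against 0.18 and -0.17 without it. Esr1 became -0.0008 and 0.01 in the same order, and the Nr5a1 time difference in ieET-1 arteries became -0.15. Nr5a1 is itself in that score, and the score differed between the genotypes at the short term. Esr1 at the long term was -0.06 with weights.

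Leaving out each mouse in turn moved the genotype difference of Pgr at the long term between -0.18 and 0.08, that of Esr1 between -0.03 and 0.16 at the short and -0.03 and 0.06 at the long term, its change with time between -0.14 and 0.05, Nr3c1 at the long term between -0.03 and 0.06, and Nr3c2 at the short term between -0.10 and 0.05. Calls over all genes ranged from 1 to 21 (genotype, short term; 1 without mouse 9957, 21 without mouse 9955), 272 to 592 (time, ieCre; 272 without mouse 9485) and 698 to 1566 (time, ieET-1; 698 without mouse 258). The 12 calls at the short term became 1 with no filter, 7 in either edgeR fit, 41 in DESeq2, 4 with the compared groups alone, 55 with weights, 19 with ID range, 1 with the adrenal score and 24 without the 4 libraries. The single long-term call became 2 with no filter, and the 0 for the change with time became 6 in DESeq2 and 1 without the 4 libraries. The 480 ieCre time calls became 316 with no filter, 794 in DESeq2, 2220 with weights, 228 with the adrenal score and 266 without the 4 libraries. The 1260 ieET-1 time calls became 1898 in DESeq2, 657 with the compared groups alone, 525 with the adrenal score and 603 without the 4 libraries. Of 34 calls of list genes between the times, 8 held in all their alternatives (22 or 23 each), among them Rarb in both genotypes and Nr2f6, Nr1h2, Sult1e1, Cdc37 and Fam107a in ieET-1 arteries, and the other 26 were lost in 1 to 15. Depth limits Pgr at the long term, where 1 library had fewer than 3 reads. No paired analysis was possible because the animal IDs pair no mice across groups.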
